A study of Sus scrofa with 8 samples.

Results

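The stage dependence of a muscle factor knockout was examined in limb muscle tissue of pig embryos, as the gene-by-gene difference between the knockout effect at embryonic day 62 (E62) and the same effect at embryonic day 41 (E41). All 8 libraries of the series entered it, 2 for each of 4 groups: wild type (WT) at E41, MYF5/MYOD/MYF6 knockout (KO) at E41, wild type at E62 and knockout at E62. Knockout embryos are labelled as knockouts of the genes of the transcription factors MYF5, MYOD1 and MYF6, whose proteins were not measured here. The labels name no agent in any group. For each of 17020 genes, the log2 change from wild type to knockout at E41 was subtracted from that at E62. A positive difference means that the knockout stood higher relative to wild type at E62 than at E41, and a negative one that it stood lower.

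Total counts ran from 23402052 to 60539245 per library, and the correlation of log CPM (counts scaled to the effective library size by TMM) between the 2 replicates of a group from 0.957 in knockout E62 to 0.982 in knockout E41. Titles call the replicates biological, and the names of the knockout E62 libraries carry separate embryo marks (Emb). Names of the other groups carry differing suffixes that no label explains. The p-values below rest on the spread between libraries, which may be partly technical. Within the library names each group has a number of its own, so a litter or a preparation batch and the group cannot be told apart. Wild-type E41 names also carry another limb code than the other 3 groups. The growth protocol gives day 60 where the samples say E62, and the series title says knockdown where they say knockout. MYF5 and MYF6 had 0 counts in all 4 knockout libraries, and MYOD1 stood at 72.6 and 95.6 CPM in wild type and 0.603 and 0.434 in the knockout at E41. MYOD1 at E62 was at 172 and 153 CPM in wild type and 1.14 and 1.47 in the knockout. The MYOD1 effect did not differ between the stages past the threshold, with a difference of 0.37 ± 0.30 (adjusted p = 0.4).

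The tissue label was checked against muscle markers. Sarcomere genes of embryonic, slow and cardiac type summed to between 21492 and 35373 CPM in the 4 wild-type libraries and to between 19.4 and 26.4 CPM in the 4 knockout libraries. Markers of cells that a dissected limb can hold beside muscle also varied between libraries. Skin epithelium genes summed to 1040 and 1747 CPM at E41 in wild type, against 2201 and 1272 CPM in the knockout. At E62 they summed to 42.8 and 44.2 CPM in wild type, against 1444 and 72.5 CPM in replicates 1 and 2 of the knockout. Cartilage genes summed to 7175 CPM in knockout E41 replicate 2, against 302 to 2031 CPM in the other 7 libraries. In bulk tissue, fewer cells of a type and less RNA per cell cannot be told apart.

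As background, MYF5, MYOD1 and MYF6 are basic helix-loop-helix factors that commit limb progenitors to the myogenic lineage and switch on myogenin and the contractile genes. In large mammals, fetal muscle forms in waves: primary fibres are laid down first, and secondary fibres, many of which become fast fibres, form around them later. Between these waves the wild-type limb therefore changes its muscle makeup, while connective tissue, vessels, nerves and immune cells mature around it. A limb without committed muscle cells keeps the other lineages.

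The knockout effect differed between the stages at 4553 of 17020 genes (26.8%), with 1913 higher at E62 (11.2% of genes tested) and 2640 lower (15.5%). Here a gene passes when its Benjamini-Hochberg adjusted p from edgeR's quasi-likelihood test is under 0.05, and values with ± are log2 values with their standard error, n = 2 libraries per group. Over all genes tested the median difference was 0.0091, with quartiles of -0.59 and 0.56. Of the genes past the threshold, 2327 differed over 2-fold and 831 over 4-fold, 310 of these higher and 521 lower. In a test against a change of 2-fold, in place of 0, 559 genes remained past the threshold, 142 higher and 417 lower. The count fell to 2499 without knockout E41 replicate 1 and to 2685 without knockout E41 replicate 2. The share of genes past the threshold was 5.73% among those under 1 CPM on average, 19.8% between 1 and 10 CPM, 35.0% between 10 and 100 CPM and 38.0% from 100 CPM upwards, and the median standard error fell over these classes from 1.12 to 0.16.

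Each difference has a genotype side and a stage side. At E41 alone 6678 genes (39.2%) and at E62 alone 8028 genes (47.2%) differed between knockout and wild type. The E41 count held 3143 higher and 3535 lower genes and fell to 3927 without knockout E41 replicate 1 and to 4036 without knockout E41 replicate 2, and the E62 count held 3573 higher and 4455 lower genes. Scaled by library size alone, 5780 were higher and 2070 lower at E41 and 6156 higher and 2717 lower at E62, as this scaling moved the median effect over all genes from 0.089 to 0.38 at E41 and from 0.060 to 0.36 at E62. It moved the median difference only from 0.0091 to 0.026, and the values below are on the TMM scale. Of the 2640 genes with a lower effect at E62, 1045 were lower in the knockout at E62 and not past the threshold at E41, 587 were higher at E41 and not past it at E62, 469 were lower at both stages and 452 were higher at E41 and lower at E62. Of the 1913 genes with a higher effect, 739 were higher in the knockout at E62 and not past the threshold at E41, 633 were lower at E41 and not past it at E62, 176 were lower at E41 and higher at E62, and 168 were higher at both. Opposite effects at the stages were thus seen at 628 genes, a count that fell to 264 without knockout E41 replicate 1 and to 329 without knockout E41 replicate 2.

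**Figure D1:**
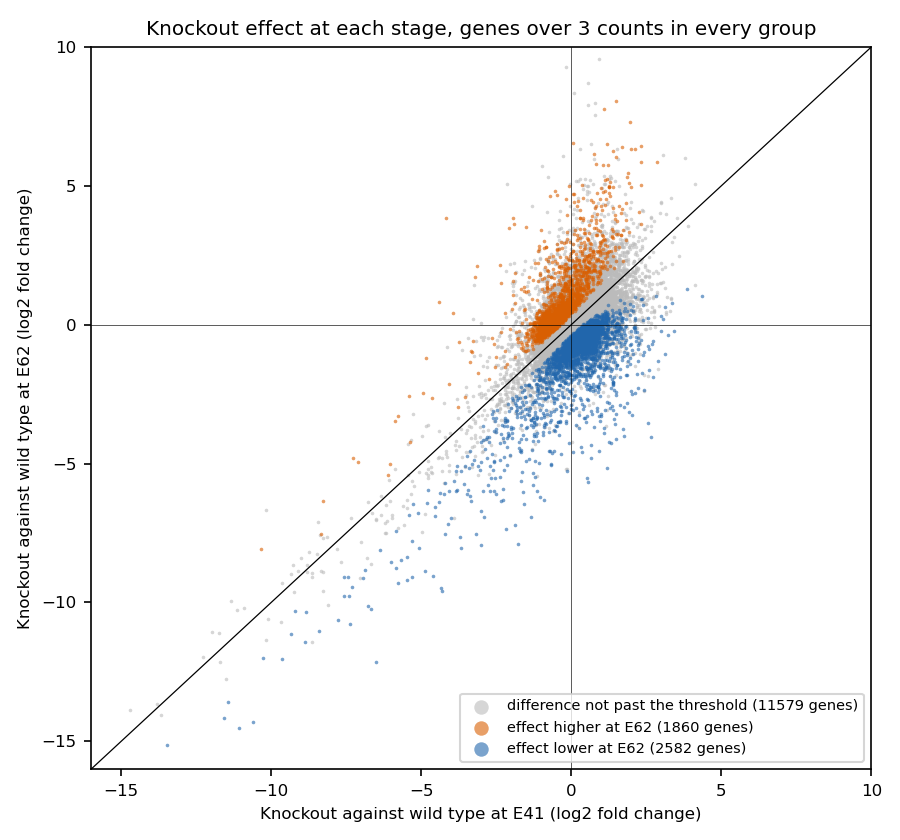
Each point is a gene with more than 3 counts in every group, plotted by its log2 fold change of knockout against wild type at E41 (x axis) and E62 (y axis); the diagonal marks equal effects. Orange points (1860 genes) had an effect past the threshold as higher at E62 and blue points (2582 genes) as lower; a lower effect places a point below the diagonal by definition.

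On the stage side, 6782 genes (39.8%) changed from E41 to E62 in wild type and 5126 (30.1%) in the knockout. The first count fell to 4491 without wild-type E62 replicate 2, and the other to 1906 without knockout E41 replicate 1, 2245 without knockout E41 replicate 2 and 2970 without knockout E62 replicate 2. Among genes with a lower effect at E62, 1077 rose in wild type with no change past the threshold in the knockout, 729 fell in the knockout with none in wild type, and 638 rose in wild type and fell in the knockout. Among genes with a higher effect, 1042 fell in wild type with no change past the threshold in the knockout, 434 rose in the knockout with none in wild type, and 185 did both.

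Gene lists are described below by how many of their genes passed the threshold and by their median difference. Over all genes tested, 11.2% had a higher effect at E62 and 15.5% a lower one, the shares to set beside these counts. Where a list is given with 0 genes past the threshold in a direction by edgeR, at most 2 of its genes had an unadjusted p under 0.05 in that direction, and DESeq2 called at most 1. The lymphocyte and granulocyte list is the exception.

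Fast muscle genes had the most negative median difference of the lists examined. Of 16 genes of the fast and perinatal sarcomere list measured, 10 had a lower effect at E62 and 0 a higher one, with a median difference of -2.69, against 0.0091 over all genes. Knockout against wild type, 14 of the 16 were lower at E41 (20.8% of all genes) and 16 at E62 (26.2% of all genes). From E41 to E62 in wild type 14 rose (19.8% of all genes), and in the knockout 2 rose and 2 fell (12.1% and 18.0% of all genes). Together the list summed to 12525 and 12707 CPM at E41 in wild type, against 299 and 372 CPM in the knockout. The sums at E62 were 30524 and 37872 CPM in wild type, against 263 and 214 CPM in the knockout.

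MYOZ1 (ENSSSCG00000010304, chromosome 14, 76445109 to 76453014) encodes a Z-disc protein of fast fibres. It stood at 58 and 56.9 CPM in wild type and 0.28 and 0.413 in the knockout at E41. MYOZ1 at E62 was at 340 and 407 CPM in wild type and 0.236 and 0.184 in the knockout. The wild-type libraries of E62 lay above those of E41, and the knockout libraries of E62 lay below those of E41, all under 1 CPM. Its effect was -7.36 ± 0.19 (adjusted p = 2.1e-07) at E41 and -10.77 ± 0.21 (adjusted p = 4e-08) at E62, a difference of -3.41 ± 0.31 (adjusted p = 0.00086). MYOZ3, its relative in the same structure, stood at 8.7 and 11.8 CPM in wild type and 0.323 and 0.521 in the knockout at E41. MYOZ3 at E62 was at 55.3 and 63.9 CPM in wild type and 0.162 and 0.0501 in the knockout. Its difference was -4.46 ± 0.55 (adjusted p = 0.0021). Both wild-type stages were apart, and so were both knockout stages. ACTN3, the fast-fibre alpha-actinin, was at 1.88 and 1.5 CPM in wild-type E41 and 9.98 and 10.9 in wild-type E62, and between 0.118 and 0.172 CPM in the 4 knockout libraries, whose stages overlapped. The ACTN3 difference was -2.82 ± 0.47 (adjusted p = 0.005). MYLK2, the kinase of skeletal myosin light chains, differed by -1.70 ± 0.24 (adjusted p = 0.0028).

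Of 16 sarcomere genes of embryonic, slow and cardiac type, 3 had a lower effect at E62, near the share of all genes (15.5%), and 0 a higher one, with a median difference of -0.23. The median ran from -0.65 without knockout E62 replicate 2 to -0.092 without wild-type E62 replicate 1, and it moved over 1.5 times without knockout E41 replicate 2 or any other E62 library too. All 16 were lower in the knockout at each stage (20.8% of all genes at E41 and 26.2% at E62). The list medians were -11.45 at E41 and -10.31 at E62. The shift of the list median and the median of the differences thus had opposite signs. Of these genes 4 had at most 3 counts in a group, so the medians rest partly on values near 0 counts. MYBPC1, myosin-binding protein C of slow fibres, stood at 969.5 and 927 CPM in wild type and 0.323 and 0.347 in the knockout at E41. MYBPC1 at E62 was at 3934 and 5142 CPM in wild type and 0.384 and 0.35 in the knockout. Its wild-type level was higher at E62 in both libraries, its 4 knockout values lay between 0.323 and 0.384 CPM, and the difference was -2.13 ± 0.31 (adjusted p = 0.0032). MYH6, a cardiac-type myosin heavy chain, differed by -2.50 ± 0.39 (adjusted p = 0.0045), although counts may be divided among near-identical myosin copies. The third was ACTC1, at -1.67 ± 0.41 (adjusted p = 0.02), which missed the threshold without wild-type E41 replicate 1 or without knockout E41 replicate 1. The list's lower count rose to 5 without wild-type E62 replicate 2 and to 5 without knockout E62 replicate 1.

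**Figure D2:**
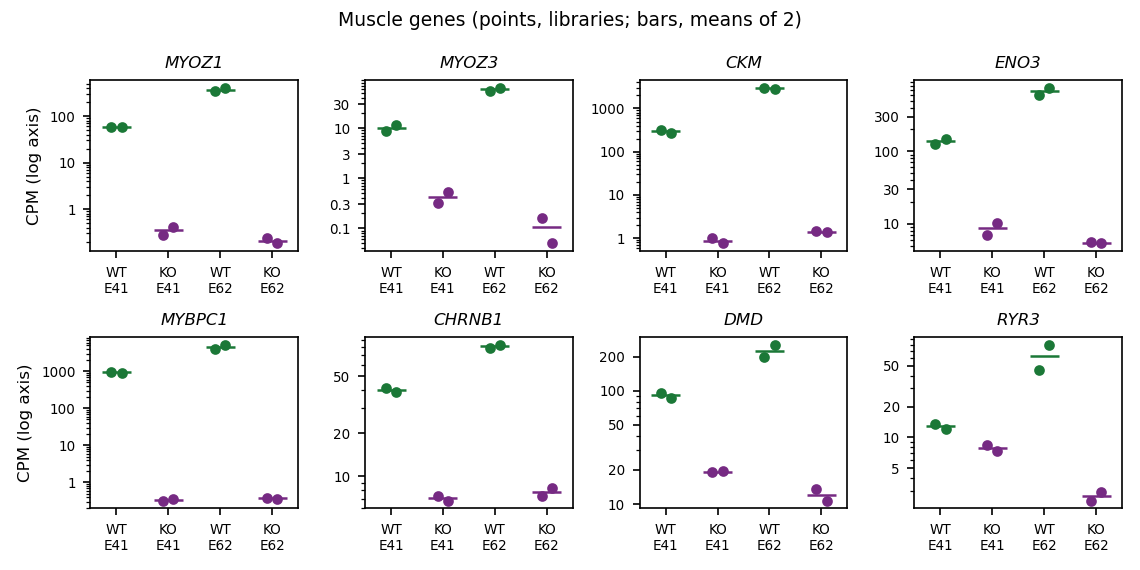
Points are libraries and bars are means of 2 in CPM on a log axis, for WT (green) and KO (purple) at E41 and E62. Wild-type levels of MYOZ1, MYOZ3, CKM, ENO3, MYBPC1, CHRNB1, DMD and RYR3 are higher at E62 in both libraries, and no knockout library reaches a wild-type library.

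Genes of terminal differentiation and cell fusion were lower in effect at E62 for 8 of 15 and higher for 0, with a median of -1.65. CKM, the muscle creatine kinase, stood at 326 and 264 CPM in wild type and 0.99 and 0.76 in the knockout at E41. CKM at E62 was at 3016 and 2807 CPM in wild type and 1.43 and 1.37 in the knockout. All 4 knockout values were under 1.5 CPM, those of E62 slightly above those of E41, while wild type was about an order of magnitude higher at E62. The CKM difference was -2.63 ± 0.24 (adjusted p = 0.00092). CDH15, the M-cadherin of myoblasts, differed by -2.35 ± 0.23 (adjusted p = 0.00099), and KLHL40, which stabilises thin filaments, by -1.72 ± 0.17 (adjusted p = 0.001). MEF2D, a myogenic cofactor also made outside muscle, kept 59.2 and 57.3 CPM in the knockout at E41 and 53.2 and 69.3 at E62, against 78.1 and 78.3 and 176 and 185 in wild type, and differed by -1.14 ± 0.18 (adjusted p = 0.0039).

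Among giant, M-band and Z-disc genes, 6 of 19 had a lower effect at E62 and 1 a higher one, with a median of -0.88, or -0.51 without knockout E62 replicate 2. HSPB7, a small heat shock protein of striated muscle, differed by -2.84 ± 0.42 (adjusted p = 0.0034) and SYNPO2L by -2.20 ± 0.36 (adjusted p = 0.0054). TMOD4, the skeletal tropomodulin that caps thin filaments, stood at 1.4 and 1.77 CPM in wild type and 1.23 and 1.02 in the knockout at E41. TMOD4 at E62 was at 23.8 and 23.4 CPM in wild type and 2.79 and 4.77 in the knockout. At E41 its groups were close together and its effect of -0.50 ± 0.31 (adjusted p = 0.23) missed the threshold, whereas at E62 wild type lay well above the knockout. TMOD4 also rose in the knockout, by 1.75 ± 0.29 (adjusted p = 0.0047), and its difference was -2.15 ± 0.41 (adjusted p = 0.0081). The gene that went the other way was TRIM63, a ubiquitin ligase of the M-band, at 1.14 ± 0.35 (adjusted p = 0.047), which missed the threshold when any 1 library but knockout E62 replicate 2 was left out.

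Excitation-contraction coupling genes had a lower effect at E62 for 9 of 19 and a higher one for 0, with a median of -1.40. RYR3, a calcium release channel, stood at 13.5 and 12.1 CPM in wild type and 8.44 and 7.38 in the knockout at E41. RYR3 at E62 was at 45.8 and 79.5 CPM in wild type and 2.43 and 2.97 in the knockout. In wild type it was several times higher at E62, and in the knockout it was lower at E62 in both libraries. At E41 its effect of -0.70 ± 0.26 (adjusted p = 0.068) missed the threshold, at E62 it was -4.53 ± 0.29 (adjusted p = 2.7e-05), and the difference was -3.84 ± 0.37 (adjusted p = 0.0011). JPH1, which ties the surface tubules to the calcium store, differed by -3.30 ± 0.42 (adjusted p = 0.003), SRL, a calcium-binding protein of that store, by -1.99 ± 0.26 (adjusted p = 0.0022), and CACNB1, a subunit of the voltage sensor, by -1.61 ± 0.23 (adjusted p = 0.0032).

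The dystrophin complex links the fibre's actin to the matrix outside. Of 11 members measured, 7 had a lower effect at E62 and 0 a higher one, with a median of -0.97. DMD stood at 95.9 and 87 CPM in wild type and 19.1 and 19.6 in the knockout at E41. DMD at E62 was at 197 and 253 CPM in wild type and 13.5 and 10.7 in the knockout. Wild type rose by 1.30 on the log2 scale while the knockout fell by 0.67, and the difference was -1.97 ± 0.21 (adjusted p = 0.0013). DAG1, the laminin receptor of the complex, differed by -1.22 ± 0.20 (adjusted p = 0.0047) and DTNA by -2.39 ± 0.30 (adjusted p = 0.0022).

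Energy metabolism genes of muscle were lower in effect at E62 for 7 of 19 and higher for 0, with a median of -0.62, or -0.36 without knockout E41 replicate 1. ENO3, the muscle enolase, stood at 127 and 149 CPM in wild type and 6.93 and 10.3 in the knockout at E41. ENO3 at E62 was at 597 and 749.8 CPM in wild type and 5.53 and 5.37 in the knockout. The difference of ENO3 was -2.95 ± 0.28 (adjusted p = 0.0011). ALDOA, a glycolytic aldolase made in many tissues, kept 217 and 227 CPM in knockout E41 and 243 and 199 in knockout E62, which overlapped, while wild type was at 477 and 583 and 1495 and 1583. The ALDOA difference was -1.54 ± 0.20 (adjusted p = 0.0021). PFKM, the muscle phosphofructokinase, differed by -1.10 ± 0.17 (adjusted p = 0.0042) and ADSS1 of the purine nucleotide cycle by -1.26 ± 0.15 (adjusted p = 0.0018).

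Neuromuscular junction genes were mixed, with 3 of 13 lower and 2 higher (15.5% and 11.2% of all genes). Their median of -0.32 became -0.78 without knockout E62 replicate 1 and -0.076 without knockout E62 replicate 2. CHRNB1, a subunit of the muscle acetylcholine receptor, differed by -0.86 ± 0.14 (adjusted p = 0.0053) and ERBB3, the neuregulin receptor also carried by Schwann cells, by -2.01 ± 0.33 (adjusted p = 0.0061). CHRNA1, the alpha subunit of the same receptor, stood at 763 and 625 CPM in wild type and 0.689 and 0.369 in the knockout at E41. CHRNA1 at E62 was at 416 and 362 CPM in wild type and 1 and 1.89 in the knockout. It was the reverse of CHRNB1 in wild type, where both E62 libraries lay below both of E41. Its difference of 2.27 ± 0.48 (adjusted p = 0.016) missed the threshold without wild-type E41 replicate 1, knockout E41 replicate 2 or wild-type E62 replicate 2. The lower count of the list rose to 6 without knockout E62 replicate 1, and the higher count fell to 0 without knockout E41 replicate 2 and to 1 without wild-type E41 replicate 1, wild-type E62 replicate 2 or knockout E62 replicate 1.

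Of 16 muscle progenitor regulators, 4 had a lower effect at E62 and 1 a higher one, with a median of -0.31, and the lower count fell to 1 without wild-type E41 replicate 1, wild-type E41 replicate 2, wild-type E62 replicate 1 or wild-type E62 replicate 2 and to 2 without knockout E62 replicate 1 or 2. The median was -0.63 without wild-type E41 replicate 1, -0.20 without knockout E41 replicate 2 and -0.48 without knockout E62 replicate 2. LBX1, a homeobox gene of migrating limb muscle precursors, stood at 10.2 and 7.65 CPM in wild type and 0.753 and 0.608 in the knockout at E41. LBX1 at E62 was at 18.9 and 13.5 CPM in wild type and 0.118 and 0.0334 in the knockout. Wild type overlapped neither knockout group, the knockout was lower at E62 in both libraries, and the difference was -3.94 ± 0.58 (adjusted p = 0.0032). PAX7, the marker of muscle stem cells, had 84 and 18 counts in knockout E41 and 0 and 1 in knockout E62, against 1738 and 1854 and 3871 and 2869 counts in wild type. PAX3, its close relative, stood at 0.338 and 1.42 CPM in wild type and 2.07 and 1.76 in the knockout at E41, and 0.331 and 0.0589 in wild type and 1.11 and 0.317 in the knockout at E62, with the knockout above wild type at E41, overlapping genotypes at E62 and a difference of 0.75 ± 1.30 (adjusted p = 0.7) that ran from -0.64 to 2.38 over the alternatives. MYOG, the factor of terminal differentiation, had 4 counts over knockout E41 and 1 over knockout E62, too few for a difference between stages.

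**Figure D3:**
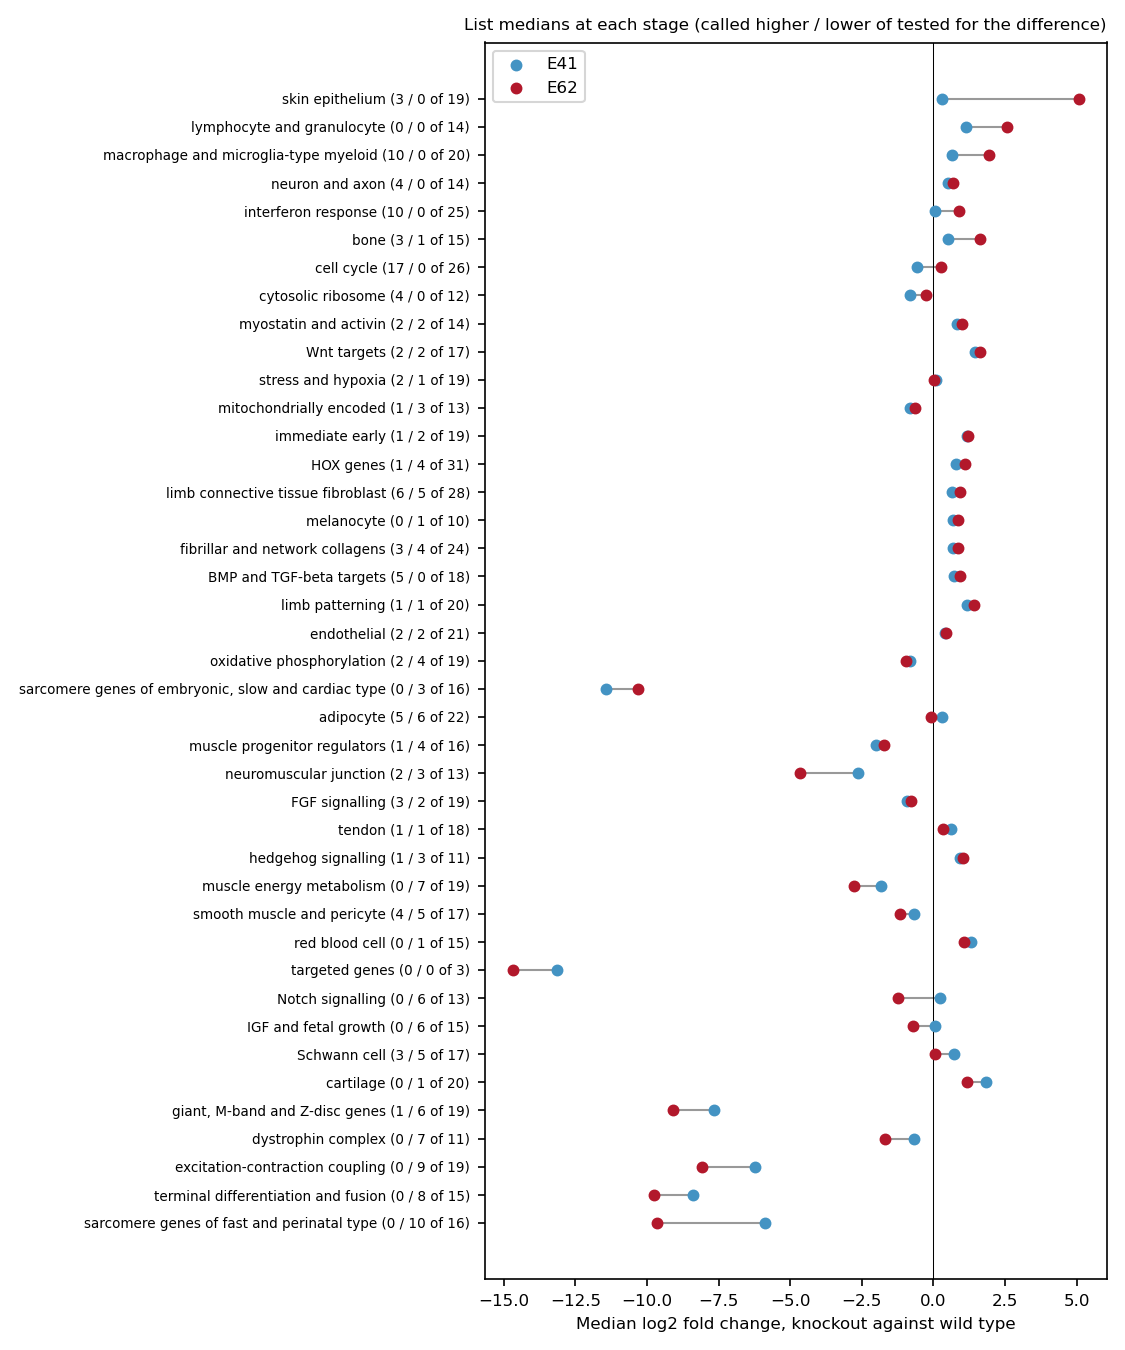
Each line joins the median log2 fold change of knockout against wild type of a gene list at E41 (blue) and at E62 (red), ordered by the median difference; labels give how many genes had a higher / lower effect at E62 of those tested. The fast and perinatal sarcomere list moves from -5.89 to -9.64, the embryonic, slow and cardiac list from -11.45 to -10.31, and the cell cycle list moves from -0.57 to 0.26 across 0.

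Cell cycle genes had a higher effect at E62. Of 26 measured, 17 passed the threshold as higher and 0 as lower, with a median difference of 0.78. At E41 19 were lower in the knockout and 0 higher (20.8% and 18.5% of all genes). At E62 9 were higher and 0 lower (21.0% and 26.2% of all genes). In wild type 25 of 26 fell from E41 to E62 (20.0% of all genes), with a median of -1.03. In the knockout 9 fell and 1 rose (18.0% and 12.1% of all genes), with a median of -0.27. Summed over the list, wild type had 3456 and 3465 CPM at E41 and 1632 and 1492 at E62, and the knockout 2292 and 2259 at E41 and 1852 and 1672 at E62. The sums of the knockout lay below wild type at E41 and above it at E62.

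CENPF (ENSSSCG00000015581, chromosome 9, 128948386 to 129012241), a kinetochore protein made in dividing cells, stood at 190.2 and 184 CPM in wild type and 102 and 96.3 in the knockout at E41. CENPF at E62 was at 66.2 and 69.1 CPM in wild type and 116 and 92.6 in the knockout. Wild type fell by 1.47 on the log2 scale, the knockout libraries of the 2 stages overlapped, and the order of the genotypes reversed between stages without overlap. Its effect was -0.92 ± 0.11 (adjusted p = 0.00076) at E41 and 0.62 ± 0.11 (adjusted p = 0.0031) at E62, a difference of 1.54 ± 0.16 (adjusted p = 0.0011). CCNB2, a mitotic cyclin, stood at 53.1 and 55.6 CPM in wild type and 27.1 and 27.6 in the knockout at E41. CCNB2 at E62 was at 21.6 and 19.3 CPM in wild type and 27.5 and 24.6 in the knockout. Here too the knockout lay below both wild-type libraries at E41 and above both at E62, and the difference was 1.34 ± 0.14 (adjusted p = 0.0013). TPX2, a spindle assembly factor, differed by 1.17 ± 0.13 (adjusted p = 0.0014), and MCM6, a helicase subunit of DNA replication, by 0.98 ± 0.12 (adjusted p = 0.0018).

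Cytosolic ribosomal protein genes had a higher effect at E62 for 4 of 12 and a lower one for 0, with a median of 0.49. In the knockout 11 of the 12 were lower at E41 (20.8% of all genes). At E62 5 were lower and 0 higher (26.2% and 21.0% of all genes). The list median of the knockout effect was -0.83 at E41 and -0.28 at E62, below 0 at both stages. RPL7 stood at 3001 and 3349 CPM in wild type and 1421 and 1414 in the knockout at E41. RPL7 at E62 was at 1655 and 1395 CPM in wild type and 2010.4 and 1705 in the knockout. Both knockout libraries were below wild type at E41 and above it at E62, where the effect of 0.28 ± 0.14 (adjusted p = 0.14) missed the threshold, and the difference was 1.45 ± 0.21 (adjusted p = 0.0029). RPS18 and RPS23 differed by 1.23 ± 0.22 and 1.05 ± 0.20. Near-identical copies of such genes make the assignment of their reads uncertain.

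Of 20 macrophage and microglia-type genes, 10 had a higher effect at E62 and 0 a lower one, with a median of 1.35. In the knockout 5 were higher and 1 lower at E41 (18.5% and 20.8% of all genes), so the higher count was near its share, and 18 were higher and 1 lower at E62 (21.0% and 26.2%). From E41 to E62, 15 rose in the knockout (12.1% of all genes). In wild type 2 rose and 2 fell, both under the shares of all genes (19.8% and 20.0%). The list summed to 364 and 202 CPM at E41 in wild type, against 392 and 385 CPM in the knockout. Its sums at E62 were 238 and 272 CPM in wild type, against 1089 and 1050 CPM in the knockout. The count of 10 fell to 6 without knockout E41 replicate 1 and to 5 without knockout E41 replicate 2 or without wild-type E62 replicate 1, with medians of 1.25, 1.42 and 1.21.

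C1QC, a chain of the complement component that tissue macrophages make, stood at 20.5 and 12.6 CPM in wild type and 16.1 and 16.3 in the knockout at E41. C1QC at E62 was at 14.3 and 14.5 CPM in wild type and 75.4 and 85.4 in the knockout. The groups of E41 overlapped, those of E62 did not, and the knockout libraries of E62 lay several times above all 6 others. The C1QC difference was 2.51 ± 0.29 (adjusted p = 0.0017). LAPTM5 (ENSSSCG00000025034, chromosome 6, 87363911 to 87390371), a lysosomal protein of blood-derived cells, stood at 54.1 and 47.4 CPM in wild type and 70.8 and 65.8 in the knockout at E41. LAPTM5 at E62 was at 28.2 and 27.4 CPM in wild type and 136 and 149.7 in the knockout. The difference of LAPTM5 was 1.93 ± 0.14 (adjusted p = 0.00054). AIF1, a calcium-binding protein of macrophages, stood at 16.1 and 10 CPM in wild type and 7.64 and 7.73 in the knockout at E41. AIF1 at E62 was at 7.01 and 8.13 CPM in wild type and 27.5 and 23.1 in the knockout. The knockout lay below wild type at E41 and above it at E62, and the difference was 2.50 ± 0.32 (adjusted p = 0.0019). Of 14 lymphocyte and granulocyte genes 0 passed the threshold by edgeR, 3 by DESeq2 and 0 by limma-voom, with a median of 1.38, or 0.42 without knockout E62 replicate 2, and 4 had an unadjusted p under 0.05.

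Interferon response genes had a higher effect at E62 for 10 of 25 and a lower one for 0, with a median of 0.91. In the knockout 4 were higher and 5 lower at E41, both near the shares of all genes (18.5% and 20.8%), and 16 were higher and 0 lower at E62 (21.0% and 26.2%). From E41 to E62, 13 rose in the knockout and 0 fell (12.1% and 18.0% of all genes). In wild type 3 rose and 3 fell, both under the shares of all genes (19.8% and 20.0%). IFIT2, an interferon-induced antiviral gene, stood at 15.8 and 16.8 CPM in wild type and 3.08 and 3.34 in the knockout at E41. IFIT2 at E62 was at 17.6 and 14.3 CPM in wild type and 12.1 and 14.9 in the knockout. The knockout of E41 lay several times below the other 3 groups, whose values lay close together, and the difference was 2.10 ± 0.24 (adjusted p = 0.0014). IFIT3 was also lowest in knockout E41, with a difference of 2.63 ± 0.34 (adjusted p = 0.002), although reads may be divided among the related IFIT genes. The count of 10 fell to 6 without knockout E41 replicate 1, knockout E41 replicate 2 or wild-type E62 replicate 1, with medians of 0.84, 1.00 and 0.79.

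**Figure D4:**
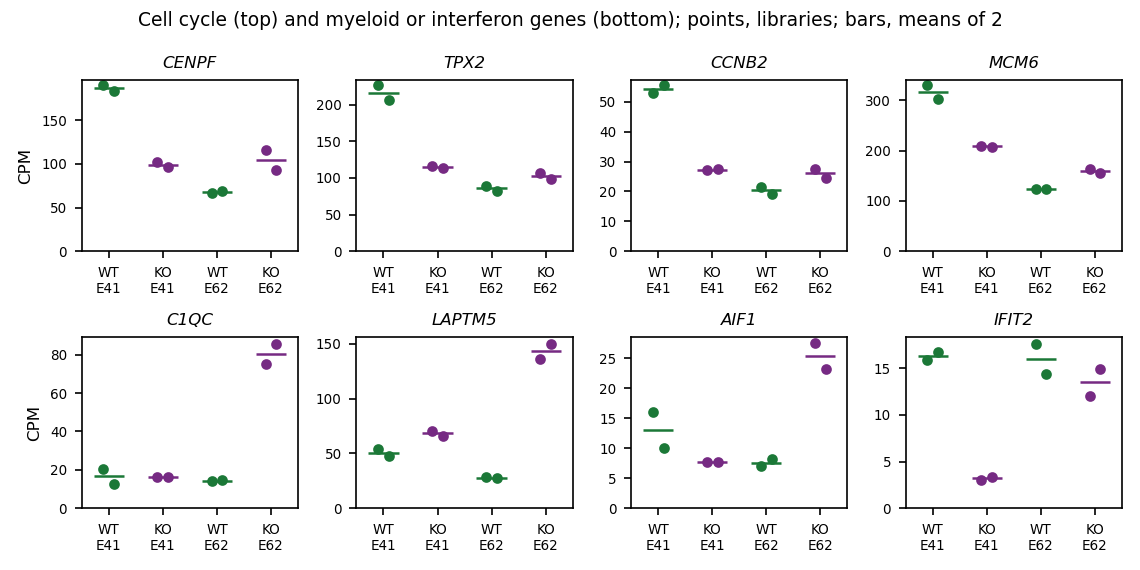
Points are libraries and bars means of 2 in CPM on an axis from 0, for WT (green) and KO (purple). CENPF, TPX2, CCNB2 and MCM6 (top) fall in wild type between the stages, and their knockout lies below wild type at E41 and above it at E62. C1QC, LAPTM5 and AIF1 (bottom) are highest in knockout E62, and IFIT2 is lowest in knockout E41.

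Notch signalling genes had a lower effect at E62 for 6 of 13 and a higher one for 0, with a median of -0.69, or -0.40 without knockout E41 replicate 1. The list median of the knockout effect was 0.23 at E41 and -1.24 at E62. NOTCH1, a receptor, stood at 29.5 and 37.7 CPM in wild type and 97.4 and 70 in the knockout at E41. NOTCH1 at E62 was at 119 and 128 CPM in wild type and 61.8 and 62.3 in the knockout. The knockout lay above wild type at E41 and below it at E62 with no overlap, with effects of 1.31 ± 0.18 and -0.99 ± 0.17 and a difference of -2.31 ± 0.25 (adjusted p = 0.0013). JAG2, a ligand, stood at 16.7 and 13.8 CPM in wild type and 33.1 and 23 in the knockout at E41, and 63.2 and 64.3 in wild type and 14.2 and 13.6 in the knockout at E62, reversed in the same manner, and differed by -3.08 ± 0.25 (adjusted p = 0.00065). The ligand DLL1 differed by -1.96 ± 0.36 (adjusted p = 0.0075), and NOTCH3, a receptor of mural and satellite cells, by -1.16 ± 0.17 (adjusted p = 0.0032).

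Genes of fetal growth, several of them imprinted, were lower in effect at E62 for 6 of 15 and higher for 0, with a median of -0.70. PEG10, an imprinted gene derived from a retroelement, stood at 3182 and 2898 CPM in wild type and 1014 and 875 in the knockout at E41. PEG10 at E62 was at 6708 and 7539 CPM in wild type and 384 and 212 in the knockout. Wild type rose and the knockout fell, without overlap of any group, and the difference was -2.89 ± 0.37 (adjusted p = 0.0023). DLK1, an imprinted transmembrane protein of fetal muscle and fat precursors, differed by -2.11 ± 0.30 (adjusted p = 0.0032). PEG3 stood at 23.5 and 21.8 CPM in wild type and 40.1 and 32.2 in the knockout at E41. PEG3 at E62 was at 48.2 and 58.1 CPM in wild type and 19.7 and 18.7 in the knockout. It was higher in the knockout at E41 and lower at E62, and differed by -2.15 ± 0.20 (adjusted p = 0.00089). PLAGL1, an imprinted zinc finger gene, reversed likewise, from 0.66 ± 0.09 to -0.72 ± 0.09, a difference of -1.38 ± 0.13 (adjusted p = 0.00092).

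Of 11 hedgehog pathway genes, 3 had a lower effect at E62 and 1 a higher one, with a median of -0.55. GAS1 (ENSSSCG00000056862, chromosome 10, 28509168 to 28511554), a co-receptor of hedgehog ligands, stood at 13.2 and 11.3 CPM in wild type and 81.9 and 65.3 in the knockout at E41. GAS1 at E62 was at 22.6 and 21.1 CPM in wild type and 6.67 and 7.41 in the knockout. At E41 the knockout lay above wild type, at E62 below it, and the effects were 2.58 ± 0.15 (adjusted p = 1.7e-05) and -1.64 ± 0.14 (adjusted p = 8.5e-05). GAS1 fell by 3.39 on the log2 scale in the knockout and rose by 0.83 in wild type, a difference of -4.22 ± 0.21 (adjusted p = 0.0002). SMO, the signal transducer of the pathway, was at 206 and 215 CPM in knockout E41 and between 109 and 132 CPM in the other 6 libraries, a difference of -0.82 ± 0.13 (adjusted p = 0.0042). The gene with a higher effect, the hedgehog-binding protein HHIP, differed by 0.80 ± 0.23 (adjusted p = 0.036) and missed the threshold when any library but knockout E41 replicate 1 was left out.

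Limb fibroblast genes split: 6 of 28 had a higher effect at E62 and 5 a lower one (11.2% and 15.5% of all genes). The lower count was near its share. The list median of 0.089 changed sign without wild-type E62 replicate 2 (-0.046) or knockout E62 replicate 1 (-0.047). With the other libraries left out it ran up to 0.29, without wild-type E41 replicate 2. The genes of smallest p were all lower. HIC1, a repressor that marks mesenchymal progenitors, stood at 34.7 and 36.3 CPM in wild type and 107 and 81.3 in the knockout at E41, and 64.4 and 65.7 in wild type and 23.9 and 31.4 in the knockout at E62, and MFAP4, a microfibril protein, at 169 and 119 CPM in wild type and 472 and 555 in the knockout at E41. MFAP4 at E62 was at 173 and 128 CPM in wild type and 83.5 and 86.9 in the knockout. In both the knockout lay above wild type at E41 and below it at E62, and the differences were -2.64 ± 0.23 (adjusted p = 0.00088) and -2.66 ± 0.29 (adjusted p = 0.0014). DPP4, a surface peptidase of fibroblast progenitors, was higher in wild-type E62 (51.8 and 65.4 CPM) than in the other 6 libraries, which ranged from 10.9 to 18.8 CPM, and differed by -1.91 ± 0.30 (adjusted p = 0.0048). The 6 higher differences were smaller in size, from 0.65 ± 0.15 (adjusted p = 0.018) for OSR2, a factor of connective tissue, to 1.19 ± 0.21 (adjusted p = 0.0061) for COL6A3. OSR2 was chosen after its values were seen, and it stood at 32.9 and 34.1 CPM in wild type and 96.7 and 81.2 in the knockout at E41. At E62 OSR2 was at 18.6 and 18.2 CPM in wild type and 72.5 and 81.0 in the knockout, so the knockout lay above wild type at both stages. The higher count of the list fell to 2 without wild-type E41 replicate 1 or knockout E41 replicate 2, and to 3 without knockout E41 replicate 1.

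The chains of collagen VI, which assemble into a shared microfibril, were split as well. COL6A1 and COL6A2 had a lower effect at E62, by -1.05 ± 0.20 (adjusted p = 0.0084) and -1.23 ± 0.14 (adjusted p = 0.0014), and COL6A3 a higher one, by 1.19 ± 0.21 (adjusted p = 0.0061). COL6A3 stood at 739 and 652 CPM in wild type and 727 and 629 in the knockout at E41, and 362 and 449 in wild type and 959.6 and 846 in the knockout at E62, with overlapping genotypes at E41 and the knockout above wild type at E62. COL6A2 was at 375 and 339 CPM in wild type and 511 and 492 in the knockout at E41, and at 353 and 373 and 218 and 217 at E62, so the genotypes changed order. Over the 24 collagen genes of the list 3 were higher and 4 lower, both near the shares of all genes (11.2% and 15.5%). The list median of -0.011 ran from -0.33 without wild-type E41 replicate 1 to 0.14 without wild-type E41 replicate 2. COL18A1, a basement membrane collagen, differed by -1.53 ± 0.26 (adjusted p = 0.0056). Without wild-type E41 replicate 2, or without knockout E62 replicate 2, the higher count was 1.

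Among adipocyte genes 5 of 22 had a higher effect at E62 and 6 a lower one. Their median of -0.29 was 0.018 without knockout E41 replicate 2 and -0.064 without knockout E62 replicate 1, -0.17 without wild-type E41 replicate 1, -0.18 without wild-type E62 replicate 2 and -0.44 without knockout E62 replicate 2. PPARG, the master regulator of fat cells, stood at 1.74 and 2.65 CPM in wild type and 4.63 and 4 in the knockout at E41. PPARG at E62 was at 2.95 and 4.86 CPM in wild type and 32.4 and 48.2 in the knockout. Knockout E62 lay about an order of magnitude above wild type of that stage, and its difference was 2.40 ± 0.45 (adjusted p = 0.009). EBF2, a factor of fat cell precursors, was below wild type in the knockout at E41 and above it at E62, and differed by 1.26 ± 0.15 (adjusted p = 0.0017). PNPLA2, a lipase, had the opposite sign, at -1.87 ± 0.23 (adjusted p = 0.0017). Left-out libraries moved both counts: the higher one fell to 3 without wild-type E41 replicate 1 or knockout E41 replicate 2 and to 2 without wild-type E41 replicate 2, and the lower one fell to 3 without wild-type E41 replicate 1, knockout E41 replicate 1 or knockout E41 replicate 2.

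BMP and TGF-beta targets had a higher effect at E62 for 5 of 18 and a lower one for 0. The median of -0.025 ran from -0.19 without knockout E62 replicate 1 to 0.14 without wild-type E62 replicate 1. GREM1 (ENSSSCG00000033657, chromosome 1, 136617041 to 136629293), a secreted BMP antagonist, stood at 35.4 and 59.6 CPM in wild type and 121 and 149 in the knockout at E41. GREM1 at E62 was at 0.391 and 0.589 CPM in wild type and 156 and 109.7 in the knockout. Wild-type E62 lay under 1 CPM, far below the other 3 groups, and the knockout stages overlapped. Its effects were 1.51 ± 0.29 (adjusted p = 0.008) and 8.07 ± 0.43 (adjusted p = 2.7e-05), and the difference was 6.56 ± 0.50 (adjusted p = 0.00099). SMAD9, a BMP signal transducer, was lower in the knockout at E41 and higher at E62, and differed by 2.0 ± 0.29 (adjusted p = 0.0032).

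Of 19 FGF pathway genes, 3 had a higher effect at E62 and 2 a lower one, both near the shares of all genes (11.2% and 15.5%). The median was -0.34, or -0.17 without knockout E41 replicate 2. The higher count fell to 1 without knockout E41 replicate 1 or wild-type E62 replicate 1, and the lower count rose to 4 without wild-type E62 replicate 1 or knockout E62 replicate 1. FGF10, the mesenchymal ligand of limb outgrowth, stood at 24.2 and 23.6 CPM in wild type and 16.6 and 18 in the knockout at E41. FGF10 at E62 was at 5.29 and 11.2 CPM in wild type and 47.7 and 77 in the knockout. It fell in wild type and rose in the knockout, and differed by 3.38 ± 0.53 (adjusted p = 0.0071). FGF1 stood at 19.9 and 14 CPM in wild type and 2.63 and 4.58 in the knockout at E41, and at 52.2 and 29.4 and 1.08 and 1.07 at E62, a difference of -3.01 ± 0.53 (adjusted p = 0.0082). FGF2 was higher in the knockout at E41, at 29.8 and 33.4 against 13.8 and 10.3 CPM, close to wild type at E62, at 25.6 and 26.4 against 22.2 and 25.8, and differed by -1.28 ± 0.22 (adjusted p = 0.0055). Of 20 limb patterning genes, 1 had a higher effect at E62 and 1, PITX1, a lower one. Both counts were under the shares of all genes (11.2% and 15.5%). The list median of -0.15 ran from -0.32 without knockout E62 replicate 1 to 0.068 without wild-type E41 replicate 1. PITX1, the homeobox gene of hindlimb identity, stood at 39.2 and 40.5 CPM in wild type and 164 and 146 in the knockout at E41. PITX1 at E62 was at 5.23 and 8.3 CPM in wild type and 3.6 and 2.32 in the knockout. All groups fell to low levels at E62, the knockout further, and the difference was -3.15 ± 0.36 (adjusted p = 0.002).

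Smooth muscle and pericyte genes numbered 4 higher and 5 lower of 17. Their median of -0.63 became -0.11 without wild-type E62 replicate 2 and -0.39 without knockout E62 replicate 1. DES, the intermediate filament of all muscle, stood at 1075 and 1101 CPM in wild type and 21.8 and 17.6 in the knockout at E41. DES at E62 was at 3684 and 4465 CPM in wild type and 5.05 and 7.74 in the knockout. The difference of DES was -3.53 ± 0.31 (adjusted p = 0.00075). SYNPO2, an actin-binding protein of striated and smooth muscle, differed by -2.75 ± 0.40 (adjusted p = 0.0047). TAGLN, the smooth muscle gene transgelin, was at 52.7 and 55.9 CPM in knockout E41 and between 92.0 and 131 CPM in the other 6 libraries, with a difference of 1.27 ± 0.21 (adjusted p = 0.0054). The higher count fell to 2 without wild-type E41 replicate 1 and to 1 without knockout E41 replicate 1 or 2, and the lower count to 3 without knockout E41 replicate 2.

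Endothelial genes passed the threshold for 2 of 21 as higher and 2 as lower, under the shares of all genes (11.2% and 15.5%). The median of -0.16 ran from -0.55 without knockout E62 replicate 2 to 0.15 without knockout E62 replicate 1, and also moved over 1.5 times without any 1 wild-type library. Without knockout E62 replicate 2 the lower count was 8 and without any other library 1, and the higher count was 4 without knockout E62 replicate 1 and 1 without wild-type E41 replicate 1, knockout E41 replicate 2, or either wild-type E62 library. SOX18, a factor of vessel and lymphatic endothelium, stood at 10.1 and 7.83 CPM in wild type and 34 and 22.7 in the knockout at E41, and 22.8 and 20 in wild type and 9.84 and 17 in the knockout at E62, where knockout E41 was above wild type and knockout E62 below it, and differed by -2.33 ± 0.43 (adjusted p = 0.0096). The other lower gene was APLN, the ligand of the apelin receptor, at -0.64 ± 0.19 (adjusted p = 0.045). APLN missed the threshold when scaled by relative log expression, with the replicate block and without the robust option. Its difference ran from -0.83 to -0.47 over the alternatives, and its E41 effect changed sign when scaled by library size alone. FLT4, a receptor of lymphatic endothelium, stood at 15.8 and 15 CPM in wild type and 38.8 and 28.2 in the knockout at E41, and 6.62 and 5.51 in wild type and 37.1 and 63.9 in the knockout at E62, above wild type in the knockout at both stages, and differed by 1.94 ± 0.39 (adjusted p = 0.013). It missed the threshold with limma-voom and without wild-type E41 replicate 1 or wild-type E62 replicate 2. LYVE1, a hyaluronan receptor of lymphatic vessels and macrophages, stood at 92.1 and 50.7 CPM in wild type and 71.3 and 67.3 in the knockout at E41, and 46 and 52.6 in wild type and 163 and 169 in the knockout at E62, with overlapping genotypes at E41 and knockout E62 highest. The LYVE1 difference of 1.80 ± 0.35 (adjusted p = 0.012) missed the threshold without knockout E41 replicate 2 or wild-type E62 replicate 1.

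Of 17 Schwann cell genes 3 were higher and 5 lower, with a median of -0.76, and 0 or 1 were higher when any library but knockout E62 replicate 1 was left out. PMP22, a myelin protein also made elsewhere, differed by -0.76 ± 0.11 (adjusted p = 0.0036), and PRX, which stabilises myelin, by -1.25 ± 0.26 (adjusted p = 0.011). GFRA3, a receptor subunit among the higher genes, differed by 1.43 ± 0.38 (adjusted p = 0.029) and missed the threshold with limma-voom, with the replicate block, and without any 1 library but those of knockout E62.

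Skin, nerve and cartilage lists depended on single libraries. The skin epithelium list had a median difference of 4.93 over 19 genes, with 3 higher and 0 lower. Without knockout E62 replicate 1 the median was 0.77, with 2 higher and 2 lower, and without knockout E62 replicate 2 it was 5.91, with 14 higher, and at most 1 was higher when a library of another group was left out. With limma-voom it was 2.82, with 0 higher. DSP, a desmosome protein, stood at 146 and 314 CPM in wild type and 310.5 and 164 in the knockout at E41, and 1.26 and 1.35 in wild type and 212 and 34.6 in the knockout at E62, low in wild-type E62 and spread over several fold in knockout E62, and its difference of 6.51 ± 1.51 (adjusted p = 0.035) missed the threshold when any 1 library of the other 3 groups was left out. Of 14 neuron and axon genes 4 were higher and 0 lower, with a median of 0.92, and 1 or 2 were higher when any library but wild-type E41 replicate 2 or knockout E62 replicate 2 was left out. Their median was 0.19 without wild-type E41 replicate 1, 1.39 without wild-type E41 replicate 2, 0.56 without knockout E41 replicate 1 and 0.45 without knockout E62 replicate 1, where 1 gene was lower. STMN2, a tubulin-binding protein of growing axons, stood at 178 and 401 CPM in wild type and 363 and 349.8 in the knockout at E41. STMN2 at E62 was at 2.77 and 2.41 CPM in wild type and 53.9 and 37.5 in the knockout. It was lower at E62 in both genotypes, further in wild type, and differed by 3.84 ± 0.58 (adjusted p = 0.0072). The cartilage median of -0.85 over 20 genes ran from -2.68 without wild-type E41 replicate 1 to 0.99 without knockout E41 replicate 2. It was -0.37 with limma-voom, and -1.71, -0.23 and -0.39 without knockout E41 replicate 1, wild-type E41 replicate 2 and wild-type E62 replicate 1. The gene past the threshold was SOX6, a factor of both cartilage and muscle, at -3.31 ± 0.49 (adjusted p = 0.0057).

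The genes with the largest differences were taken among those averaging at least 2 CPM, with more than 3 counts in every group and with library-by-library knockout effects that did not overlap between the stages. Effects did not overlap in this sense at 9464 genes (55.6%), among them all 4553 past the threshold. The 12 most positive differences ran from 4.86 ± 0.72 for SCN3A, a sodium channel of developing neurons, to 8.03 ± 0.77 for RANBP3L. They also held GRIK1, GREM1, DSP, GBP1, MMRN1, PNLIPRP2, IRX1, MYH13, CPNE4 and EFEMP1. In 9 of these, namely GRIK1, GREM1, DSP, MMRN1, PNLIPRP2, IRX1, CPNE4, EFEMP1 and SCN3A, both wild-type E62 libraries lay below all other libraries. A low level in wild-type E62 raises the difference by which these genes were chosen, so the selection favours this arrangement. Its share over all genes was not counted.

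MMRN1, a secreted protein of platelets and lymphatic vessels, stood at 42.6 and 21.1 CPM in wild type and 56.2 and 51.7 in the knockout at E41. MMRN1 at E62 was at 4.66 and 4.39 CPM in wild type and 247 and 402 in the knockout. Its knockout level rose by 2.59 on the log2 scale and its wild-type level fell by 2.81, a difference of 5.40 ± 0.56 (adjusted p = 0.0023). EFEMP1, an extracellular matrix glycoprotein, stood at 40.5 and 48.7 CPM in wild type and 89 and 68.7 in the knockout at E41, and 1.5 and 1.74 in wild type and 124 and 56.3 in the knockout at E62, with overlapping knockout stages, and differed by 4.97 ± 0.58 (adjusted p = 0.0032). IRX1, a homeobox gene, stood at 8.21 and 15.7 CPM in wild type and 55.3 and 38.3 in the knockout at E41. IRX1 at E62 was at 0.0902 and 0.147 CPM in wild type and 20.6 and 17.8 in the knockout. Both genotypes were lower at E62, wild type further, and the difference was 5.33 ± 0.63 (adjusted p = 0.0023). MYH13, a myosin heavy chain known from eye muscles, stood at 10.6 and 10.4 CPM in wild type and 0.624 and 0.369 in the knockout at E41. MYH13 at E62 was at 0.481 and 1.15 CPM in wild type and 1.02 and 1.85 in the knockout. Wild-type E41 lay several times above the rest, so that its effect of -4.40 ± 0.52 (adjusted p = 0.00061) at E41 had no counterpart past the threshold at E62, and the difference was 5.21 ± 0.70 (adjusted p = 0.0023), with the caution on myosin copies given above.

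The 12 most negative differences ran from -5.09 ± 0.75 for AQP4, a water channel of fast fibres and glia, to -6.11 ± 0.97 for LRRC38, an auxiliary subunit of potassium channels. Among the others were DLK2, SLITRK1, EEF1A2, CALCR, THSD7B, KCNG2, ASB18, SLC22A18 and PPP1R3A. CALCR (ENSSSCG00000015320, chromosome 9, 73279874 to 73403516), the calcitonin receptor that marks quiescent muscle stem cells, stood at 4.2 and 2.34 CPM in wild type and 1.31 and 1.24 in the knockout at E41, and 25.9 and 25.9 in wild type and 0.236 and 0.184 in the knockout at E62, higher at E62 in wild type and lower at E62 in the knockout, and differed by -5.57 ± 0.43 (adjusted p = 0.00058). EEF1A2, the elongation factor of muscle and neurons, stood at 8.41 and 5.44 CPM in wild type and 19.2 and 15.4 in the knockout at E41. EEF1A2 at E62 was at 94.9 and 129.5 CPM in wild type and 3.11 and 8.54 in the knockout. Its knockout libraries lay above wild type at E41 and far below it at E62, and the difference was -5.60 ± 0.73 (adjusted p = 0.0054). THSD7B and PPP1R3A, a glycogen-targeting subunit, had wide standard errors, with -5.49 ± 1.38 (adjusted p = 0.037) and -5.28 ± 1.43 (adjusted p = 0.0499). THSD7B missed the threshold when any library but those of wild-type E62 was left out, and PPP1R3A when any but those of knockout E41 was.

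Genes past the threshold at each stage in opposite directions were described by the 8 largest differences each way. Positive were RANBP3L, GBP1, MOXD1, SH3BGRL2, SLC45A3, RYR2, PKIB and S100A6, from 2.62 ± 0.29 to 8.03 ± 0.77. RANBP3L (ENSSSCG00000016838, chromosome 16, 21562907 to 21612389), a nuclear export factor, stood at 5.85 and 3.67 CPM in wild type and 0.237 and 0.282 in the knockout at E41. RANBP3L at E62 was at 0.451 and 0.471 CPM in wild type and 3.67 and 9.69 in the knockout. Its effects were -4.18 ± 0.55 (adjusted p = 0.001) and 3.85 ± 0.53 (adjusted p = 0.00083), and neither stage had overlapping genotypes. MOXD1, a monooxygenase-like protein, stood at 162 and 143 CPM in wild type and 98.1 and 71 in the knockout at E41. MOXD1 at E62 was at 16.1 and 13.2 CPM in wild type and 115 and 88 in the knockout. The knockout's stage change of 0.26 ± 0.19 (adjusted p = 0.33) missed the threshold, while wild type fell by 3.38 on the log2 scale, and the difference was 3.65 ± 0.29 (adjusted p = 0.00072). RYR2, the cardiac calcium release channel, stood at 10.7 and 6.59 CPM in wild type and 2.56 and 3.17 in the knockout at E41. RYR2 at E62 was at 3.82 and 4.95 CPM in wild type and 9.25 and 10.9 in the knockout. The difference of RYR2 was 2.79 ± 0.40 (adjusted p = 0.003), the sign opposite to that of RYR3. GBP1, an interferon-induced GTPase, stood at 1.4 and 1.99 CPM in wild type and 0.258 and 0.63 in the knockout at E41. GBP1 at E62 was at 0.511 and 0.618 CPM in wild type and 5.34 and 11.1 in the knockout. The difference of GBP1 was 5.78 ± 0.75 (adjusted p = 0.0021).

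**Figure D5:**
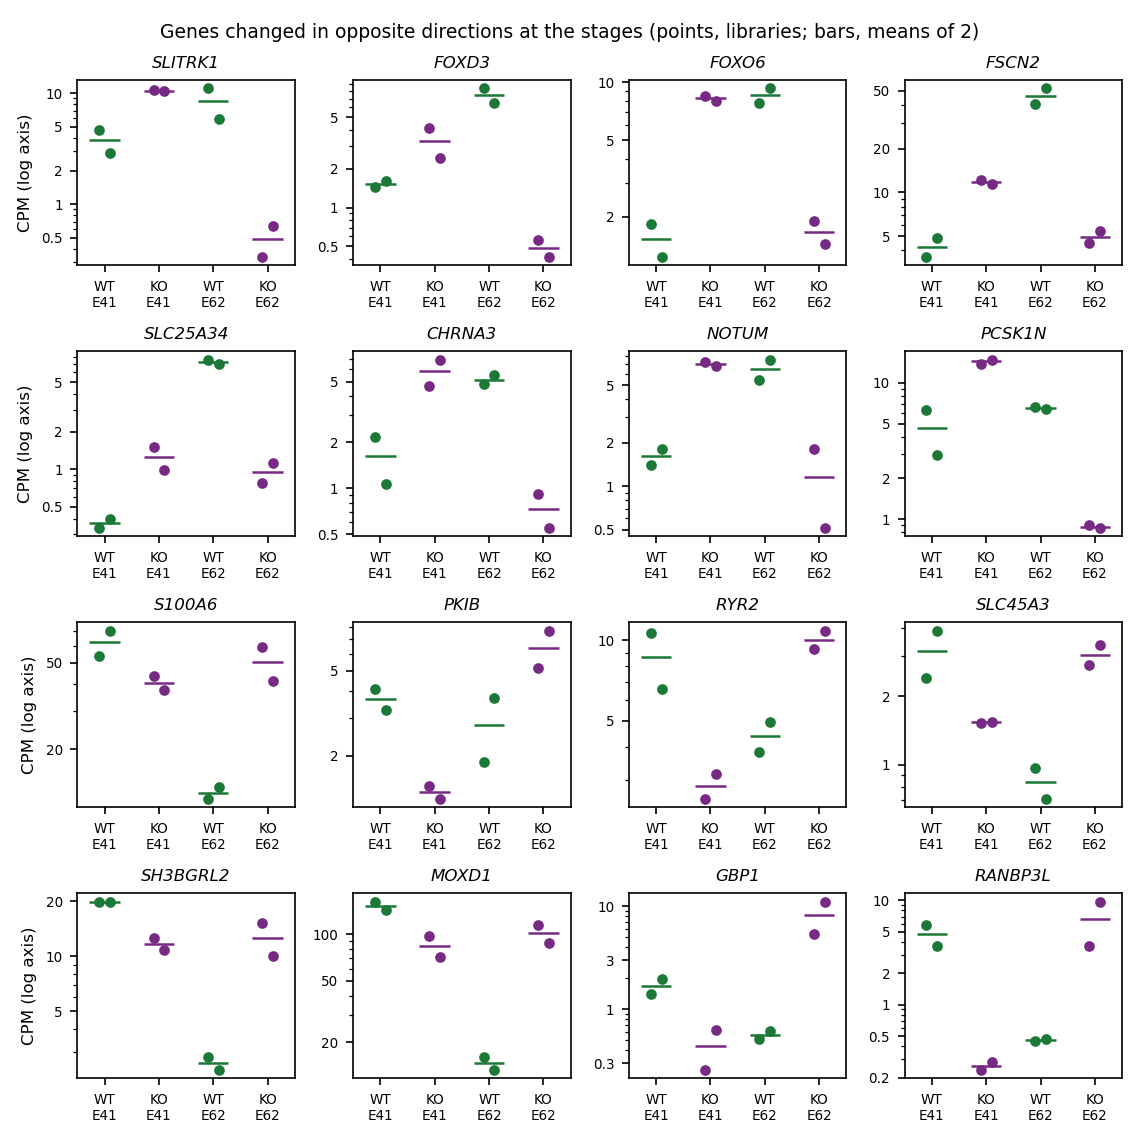
Points are libraries and bars means of 2 in CPM on log axes that differ between panels, for WT (green) and KO (purple). In the upper 8 panels the knockout is above wild type at E41 and below it at E62, and in the lower 8 the reverse, with no overlap between genotypes at either stage in any panel.

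Negative were SLITRK1, FOXD3, FOXO6, FSCN2, SLC25A34, CHRNA3, NOTUM and PCSK1N, from -5.61 ± 0.59 to -4.51 ± 0.47. FSCN2, an actin-bundling protein, stood at 3.62 and 4.82 CPM in wild type and 12.1 and 11.5 in the knockout at E41. FSCN2 at E62 was at 40.8 and 51.9 CPM in wild type and 4.49 and 5.39 in the knockout. It rose about an order of magnitude in wild type and fell by 1.26 on the log2 scale in the knockout, and the difference was -4.71 ± 0.27 (adjusted p = 0.00036). FOXO6, a forkhead factor, stood at 1.84 and 1.24 CPM in wild type and 8.53 and 8.03 in the knockout at E41. FOXO6 at E62 was at 7.79 and 9.31 CPM in wild type and 1.9 and 1.44 in the knockout. High values were those of knockout E41 and wild-type E62, low values those of wild-type E41 and knockout E62, and the difference was -4.78 ± 0.38 (adjusted p = 0.00065). FOXD3, a neural crest factor, NOTUM, an enzyme that inactivates Wnt ligands, and CHRNA3, a neuronal acetylcholine receptor subunit, had the same arrangement, with differences of -5.02 ± 0.50, -4.58 ± 0.75 and -4.66 ± 0.60. SLC25A34, a mitochondrial carrier, differed by -4.69 ± 0.52 (adjusted p = 0.0014) and was highest in wild-type E62, at 7.61 and 6.95 CPM against at most 1.51 CPM elsewhere.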

How the data were processed

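Bulk RNA sequencing of 8 libraries was used, grouped by genotype and stage from the sample titles. The table deposited by the authors gives 1 estimated count per gene and library, in whole numbers without scaling, made with kallisto per the submitters' processing notes. These notes also list DESeq2 and builds named susScr11 and Sscrofa11.1. Neither versions nor the use of strand are given in the sources used here, and antisense reads may therefore count towards a gene. Symbols matched 15527 of 22516 gene identifiers, and the coordinates printed come from RefSeq's Sscrofa11.1 annotation, matched by symbol. Genes or sequences not found there are not analysed here.

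Counts were rounded, filtered by filterByExpr (minimum count 10), which kept 17020 genes, and scaled by TMM. The model in edgeR 4.0.16 (under R 4.3.3) gave each of the 4 groups a mean and used all 8 libraries. Its quasi-likelihood fit was robust, left 4 degrees of freedom and had a common biological variation (BCV) of 0.204. The contrast was tested two-sided with Benjamini-Hochberg adjustment over all genes. Standard errors were taken as the log2 value divided by the root of the F statistic. Genes with at most 3 counts in a group are given by counts. They still enter the list counts and medians, and 111 of the genes past the threshold for the difference are such genes. Among them are 4 of 19 measured giant, M-band and Z-disc genes and 3 of 15 of terminal differentiation and fusion, whether past the threshold or not. With 2 libraries per group the precision rests on few samples.

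The comparison and the 41 gene lists (692 distinct genes tested) were chosen with earlier results of these data known. Named genes average 2 CPM or more, carry a symbol and exceed 3 counts in every group. They are the 12 largest differences each way with library-by-library effects not overlapping between stages, the 8 largest each way with opposite effects past the threshold at both stages, and in each list up to 4 with the smallest p and up to 2 against its majority. MYF5, MYOD1, MYF6, MYOG, PAX3 and PAX7 were added. Some genes that this rule names are not reported here. Which list genes to print was decided after their values were seen. In simulated data with 16633 genes, 7, 44, 50 and 50 of 50 genes changed 2-, 4-, 8- and 16-fold were recovered, with 7 calls among unchanged genes. The changed genes were few and not at low counts, and all genes shared 1 dispersion, unlike the data. Alternatives were other scalings, filters, a prior count of 2, limma-voom (limma 3.58.1), DESeq2 1.42.0, thinned counts, a fit without the robust option, a test against 2-fold, the replicate block and each library left out.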

Additional observations from a re-analysis of the deposited data

Results flagged for a closer look

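The effect of the knockout differed between the 2 stages by the interaction test of edgeR at 4553 genes, so every gene below is one where E41 and E62 differ under the same contrast. Among the largest, with the knockout higher relative to wild type at E62, were RANBP3L (8.03), GRIK1 (6.70), GREM1 (6.56), DSP (6.51), GBP1 (5.78), MMRN1 (5.40), PNLIPRP2 (5.35), IRX1 (5.33), MYH13 (5.21), CPNE4 (5.15), EFEMP1 (4.97) and SCN3A (4.86), each value a log2 difference. Among the largest negative values were LRRC38 (-6.11), DLK2 (-6.06), SLITRK1 (-5.61), EEF1A2 (-5.60), CALCR (-5.57), THSD7B (-5.49), KCNG2 (-5.46), ASB18 (-5.37), SLC22A18 (-5.34), PPP1R3A (-5.28) and AQP4 (-5.09). Opposite effects at the stages were further seen with positive differences in MOXD1 (3.65), SH3BGRL2 (3.04), SLC45A3 (2.90), RYR2 (2.79), PKIB (2.65) and S100A6 (2.62), and with negative ones in FOXD3 (-5.02), FOXO6 (-4.78), FSCN2 (-4.71), SLC25A34 (-4.69), CHRNA3 (-4.66), NOTUM (-4.58) and PCSK1N (-4.51). Of these 36 genes, 31 kept their call under each alternative other than the test against 2-fold, and 32 passed that test. Choosing the genes by their differences in these same libraries favours a kept call. LRRC38 was tested under 19 of the 20 alternatives and is counted by those. The numbers in the library names, which differ between all 4 groups, cannot be told apart from stage or genotype for any of the 36 genes.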

How the results depend on the processing

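None of the 166 named genes past the threshold changed the sign of its difference under any alternative. Medians did: with 1 library left out, those of 11 of 35 lists changed sign. The named genes were mostly chosen for small p-values or large differences in these same libraries, which favours a stable sign and a kept call. Their stability therefore need not hold for all 4553 genes. Scaled by library size alone, the knockout effect changed sign for 14 of 197 named genes at E41, C1QC among them, and for 11 at E62, IFIT2 among them. The count of 4553 genes lay between 4104 and 5183 under the other scalings, filters and tools, and between 2499 and 4282 with 1 library left out, where the lowest values were 2499 and 2685 without knockout E41 replicates 1 and 2. Fits with a library left out leave 1 group with a lone sample, assumed to vary like the others. Against a 2-fold change 559 genes passed, with 682 for the knockout at E41, 2004 at E62, 636 for the wild-type stage change, 344 for the knockout stage change and 8 for opposite effects; this test asks for a larger change by construction. With 1 library left out, counts ran from 3927 to 6720 at E41, from 5816 to 8131 at E62, from 4491 to 6885 for the wild-type stage change, from 1906 to 5022 for the knockout stage change, and from 264 to 596 for opposite effects. Of the 166 genes, 113 passed under each alternative other than the 2-fold test, and 73 passed that test. LRRC38 was tested under 19 of the 20 alternatives and is counted by those. Among the 36 with the largest or opposite effects, AQP4, GRIK1, DSP, PPP1R3A and THSD7B missed the threshold with limma-voom. The self-test recovered 7 of 50 differences of 2-fold. It held far fewer changed genes than passed here, none of them at low counts, and all genes shared 1 dispersion. Its share recovered therefore need not hold in these data, where small differences may still be missed.

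Titles give the groups replicate numbers 1 and 2, but nothing says that a number marks a shared animal. Between groups, deviations of same-numbered libraries correlated at -0.097 to 0.067. With 2 libraries per group these values cannot show whether a number marks anything shared. With the replicate number as a block, 3851 genes passed for the difference, 1548 higher and 2303 lower.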

Other observations

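Some genes of other lists also depended on the stage, as did 26.8% of all genes. Of 19 oxidative phosphorylation genes 2 had a higher effect at E62 and 4 a lower one (11.2% and 15.5% of all genes). The higher count was near its share. The list median was -0.19, or -0.082 without wild-type E41 replicate 2 and -0.12 without knockout E41 replicate 1. It was -0.052 without wild-type E62 replicate 1 and -0.080 without knockout E62 replicate 2. COX6C, a subunit of cytochrome oxidase, stood at 137 and 152 CPM in wild type and 124 and 124 in the knockout at E41, and 96.2 and 101 in wild type and 239 and 214 in the knockout at E62, with knockout E62 highest, and differed by 1.42 ± 0.14 (adjusted p = 0.00098). SDHA, a succinate dehydrogenase subunit, stood at 99.9 and 104 CPM in wild type and 100.1 and 88 in the knockout at E41, and 184 and 158 in wild type and 67 and 73.9 in the knockout at E62, with wild-type E62 highest, and differed by -1.16 ± 0.16 (adjusted p = 0.0024). Without knockout E41 replicate 1 the counts of the list were 1 higher and 1 lower, and without wild-type E62 replicate 2 they were 1 and 5.

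Of 19 stress and hypoxia genes 2 had a higher effect at E62 and 1, ASNS, a lower one. Both counts were under the shares of all genes (11.2% and 15.5%). ASNS, the asparagine synthetase of the amino acid response, stood at 151 and 133 CPM in wild type and 11.4 and 14.4 in the knockout at E41. ASNS at E62 was at 251 and 231 CPM in wild type and 9.97 and 8.21 in the knockout. The knockout was an order of magnitude below wild type at both stages, and the difference was -1.26 ± 0.20 (adjusted p = 0.0047). Of 14 genes of myostatin and activin signalling, 2 had a higher effect at E62 and 2 a lower one. Both counts were near the shares of all genes (11.2% and 15.5%). The median of this list was 0.46, or 0.23 without knockout E62 replicate 1. The higher count was 0 with limma-voom and without knockout E41 replicate 2 or either wild-type E62 library, 1 without wild-type E41 replicate 2 or knockout E41 replicate 1, and 4 with DESeq2 and without knockout E62 replicate 2. The lower count was 1 without either knockout E41 library or wild-type E62 replicate 2. ACVR2B, a receptor of myostatin and activins, stood at 10.3 and 12 CPM in wild type and 7.28 and 5.32 in the knockout at E41, and 19.5 and 23.8 in wild type and 2.92 and 1.75 in the knockout at E62, rising in wild type and falling in the knockout, and differed by -2.38 ± 0.38 (adjusted p = 0.0046). INHBB, an activin subunit, was also lower, by -1.44 ± 0.36 (adjusted p = 0.022). GDF10, a secreted factor of the same superfamily, stood at 55.3 and 22.7 CPM in wild type and 118 and 104 in the knockout at E41, and 0.962 and 1.35 in wild type and 46.4 and 105 in the knockout at E62, lowest in wild-type E62. Its difference of 4.52 ± 0.87 (adjusted p = 0.017) missed the threshold with limma-voom and without any 1 library of knockout E41 or wild-type E62. BMP4, a ligand, was higher by 1.2 ± 0.29 (adjusted p = 0.019) and missed the threshold with limma-voom and without any 1 library but those of knockout E62. Of 19 immediate early genes, 1 had a higher effect at E62 and 2, KLF2 among them, a lower one. Both counts were under the shares of all genes (11.2% and 15.5%). The median of this list was 0.15, or -0.31 without knockout E41 replicate 1. KLF2, a flow-responsive factor of endothelium, stood at 26.4 and 23.1 CPM in wild type and 64.1 and 84.3 in the knockout at E41. KLF2 at E62 was at 55.8 and 64.1 CPM in wild type and 50.6 and 70.2 in the knockout. It was lowest in wild-type E41 and differed by -1.57 ± 0.27 (adjusted p = 0.0068). Of 31 HOX genes, 1 had a higher effect and 4 a lower one, both under the shares of all genes (11.2% and 15.5%). The HOX median of 0.12 ran from -0.046 without wild-type E41 replicate 2 to 0.38 without wild-type E41 replicate 1. HOXC6, the higher one, stood at 1.74 and 3.98 CPM in wild type and 2.65 and 3.39 in the knockout at E41, and 2.62 and 1.77 in wild type and 11.8 and 15.5 in the knockout at E62, highest in knockout E62. It differed by 2.57 ± 0.56 (adjusted p = 0.014) and missed the threshold without knockout E41 replicate 1. The higher count was 4 without wild-type E41 replicate 1 and 3 without wild-type E62 replicate 2, and the lower count was 2 without knockout E41 replicate 2. HOXC11 and HOXA3, positional factors, differed by -1.53 ± 0.29 (adjusted p = 0.0083) and -1.63 ± 0.30 (adjusted p = 0.0072). HOXA3 was at 2.08 and 1.9 CPM in wild-type E41 and between 4.36 and 7.38 CPM in the other 6 libraries.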
